A study of Homo sapiens with 4 samples.

Results

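The 6 genes described here are those of the fibroblast growth factor (FGF) receptors FGFR4, FGFR1, FGFR2 and FGFR3, the receptor-like protein FGFRL1 and the receptor adaptor FRS2, out of 60554 genes in the deposited count table. They were chosen by name. FGFR4 has been reported elsewhere as a target of miR-491-5p, and it is set here beside its relatives and its adaptor. The RNA came from IGROV1-R10, a cisplatin-resistant derivative of the human ovarian cancer line IGROV1. The cells were transfected at 60 nM with biotin-labelled miR-491-5p duplex or with a biotin-labelled worm miRNA as the control (cel-miR-65 in the design text). The nuclei were removed, 10% of the lysate was kept as the input, and streptavidin beads purified the RNA held with the biotin miRNA from the rest during 4 h, followed by 5 washes. There were 4 groups, namely the miR-491-5p pull-down, the control pull-down, the miR-491-5p input and the control input, each with 1 library prepared after RNA of 3 experiments had been pooled. The design measures a miRNA supplied in excess to a single cell line, in cytoplasmic lysate. Since each group holds 1 library, contrasts of the miRNAs have neither replicates nor a p-value, and all intervals are 95% intervals that cover counting error only.

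FGF receptors are receptor tyrosine kinases of the cell surface. An FGF ligand, held by heparan sulfate or by a klotho co-receptor, pairs the receptors, and their kinases then phosphorylate FRS2, which recruits GRB2 and the phosphatase SHP2 and passes the signal to the RAS-ERK and PI3K pathways. FGFRL1 binds FGF but has no kinase domain, and Sprouty and DUSP proteins damp the signal. A miRNA guides Argonaute to mRNAs that pair with its seed, which usually lowers their level and translation, so an mRNA bound by a biotin miRNA can be both higher on the beads and lower in the input.

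The miRNA sequences are shown because the purification rests on them. Capitals mark the seed, bases 2 to 8 from the 5′ end, in the RefSeq sequences on GRCh38.p14. Both arms come from the MIR491 hairpin within FOCAD, with miR-491-5p at chr9:20716120-20716141 and miR-491-3p at chr9:20716154-20716175, on the plus strand.
hsa-miR-491-5p: aGUGGGGAacccuuccaugagg
hsa-miR-491-3p: cUUAUGCAagauucccuucuac
A transcript pairs with the whole seed of miR-491-5p where it reads UCCCCAC, and the seed of the opposite arm differs. Of 2545 mature human miRNAs in the RefSeq table, only miR-491-5p itself has this seed. The RefSeq windows from 250 bases before to 50 bases after the gene starts cover 5 of the members (FGFR4, FGFR2, FGFR3, FGFRL1 and FRS2). None of their 10 windows held TCCCCAC on the gene's strand, against 4.98% of all 35116 windows, or 0.552% in the 50 bases after the start alone. With 10 windows, a result of 0 is near both shares. These windows hold only the first bases of a transcript, and the coding and 3′ sequences of the members were not analysed here.

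Reads counted on genes came to 61705443 on the miR-491-5p beads, 62582646 on the control beads, 59588552 in the miR-491-5p input and 47679684 in the control input. Of 11 markers fixed for ovarian carcinoma epithelium, 10 passed the count minimum used throughout, a mean of 50 normalised counts over the 4 libraries, and MSLN did not. None of 6 immune markers passed it. The 13 hepatocyte markers summed to 33.2 normalised counts on the miR-491-5p beads, 26.6 on the control beads and 26.1 in the miR-491-5p input, where 5, 5 and 6 of them were at 0, and to 3658 in the control input, where none was at 0. The control beads, at 26.6, had been incubated with the same lysate. The source of this RNA was not tested, a carry-over from another library included, and bulk RNA does not show which cells it came from. The 8 fibroblast markers summed to 57.4 on the miR-491-5p beads, 57.7 on the control beads, 298 in the miR-491-5p input and 759 in the control input. Of the 3 that passed the minimum, COL1A1 (-2.54) and COL1A2 (-1.69) were at least 2-fold lower in the miR-491-5p input than in the control input, and COL3A1 had -0.96. Below the minimum, normalised counts in these 2 inputs were not lower with miR-491-5p for DCN (46.0 and 25.7), FAP (5.22 and 0) and LUM (10.4 and 10.3). They were lower for THY1 (4.18 and 7.71) and PDGFRB (0 and 7.71). The 6 immune markers summed to 21.8 on the miR-491-5p beads, 17.8 on the control beads, 14.6 in the miR-491-5p input and 77.1 in the control input. The 11 epithelial markers summed to 87399, 96946, 121481 and 154149 in the same order. The control input thus had the largest sum in each marker list, though not the largest value of every marker. It enters the enrichment, the input ratio and the control pull-down over input. The ratio of the pull-downs and the miR-491-5p pull-down over its input do not use its counts, but the size factors were taken over all 4 libraries.

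All 6 members passed the count minimum. On a scale of normalised counts per kilobase of exon, FRS2 and FGFR2 were the most abundant, FGFR1 followed, and FGFR4, FGFRL1 and FGFR3 were lower. In the control input FGFR2 had 892, FRS2 832, FGFR1 561, FGFR4 115, FGFRL1 98.6 and FGFR3 17.5 normalised counts per kilobase. The counting intervals of FGFR4 (105 to 127) and FGFRL1 (88.0 to 110) overlapped in that library, while the other neighbours in the order did not. The intervals of FGFR4 and FGFRL1 also overlapped on the control beads (64.5 and 64.3) and in the miR-491-5p input (81.6 and 69.1), but not on the miR-491-5p beads (133 and 97.9). FGFR2 was first only in the control input. FRS2 exceeded it on the miR-491-5p beads (1019 and 914), on the control beads (3108 and 1060) and in the miR-491-5p input (966 and 918). Of the summed level of the 4 kinase receptors, FGFR4 made up 8.47% on the miR-491-5p beads, 3.95% on the control beads, 5.59% in the miR-491-5p input and 7.27% in the control input. The exon length of FGFR1, 12698 bases, is the joint length of many annotated isoforms, which lowers its level per kilobase.

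**Figure D1:**
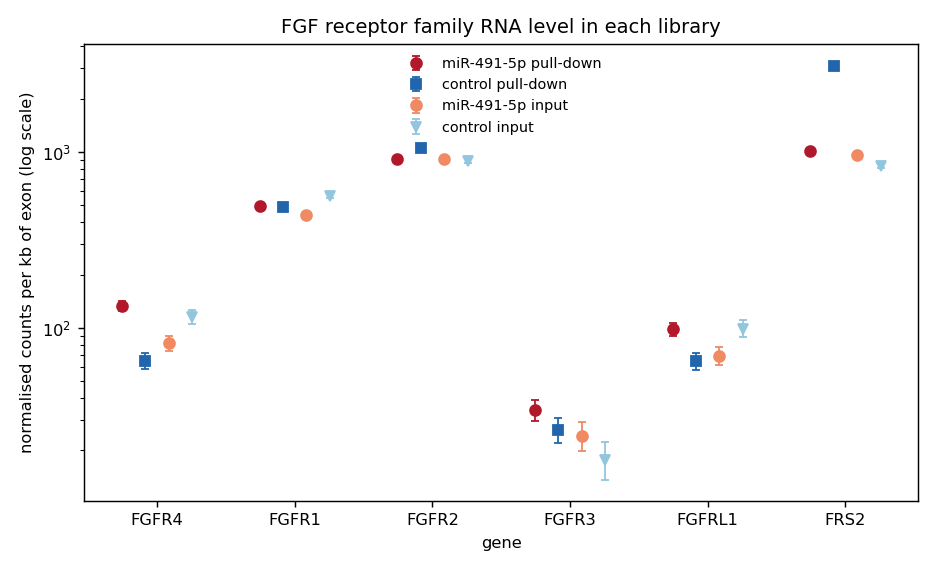
RNA level of the 6 genes in each of the 4 libraries, in normalised counts per kilobase of exon on a log scale; bars are 95% counting intervals. FGFR4 and FGFRL1 are highest on the miR-491-5p beads and in the control input, and FRS2 stands apart on the control beads at 3108.

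FGFR4 (chr5:177086886-177098144, plus strand, hg38, ENSG00000160867) encodes the receptor that, with the co-receptor KLB, receives FGF19 in hepatocytes and restrains bile acid synthesis. It was the most enriched of the 6 with miR-491-5p. Its normalised counts were 644 on the miR-491-5p beads, 312 on the control beads, 394 in the miR-491-5p input and 556 in the control input, from 796, 351, 377 and 433 reads. The miR-491-5p beads thus held the most FGFR4 RNA and the control beads the least, while the inputs stood in the opposite order. The ratio of the pull-downs (miR-491-5p divided by control) was 1.04 on the log2 scale (0.86 to 1.22), or 2.06-fold. The input ratio was -0.50 (-0.70 to -0.30), which is 0.709 of the control level. The enrichment, the pull-down ratio divided by the input ratio, was therefore 1.54 (1.27 to 1.81), or 2.91-fold, at rank 156 of 12662 genes compared. A gene was called where it differed by at least 2-fold with an interval that excluded 0, and FGFR4 was called in the enrichment and in the pull-downs but not in the inputs.

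Liver RNA is a known source of FGFR4 transcripts, and the hepatocyte markers had 26.1 normalised counts in the miR-491-5p input and 3658 in the control input. The fibroblast markers had 298 in the miR-491-5p input and 759 in the control input. The part of either in the FGFR4 input ratio was not tested. The hepatocyte marker sums of the pull-downs were 33.2 and 26.6. The pull-down ratio of 2.06-fold for FGFR4 uses their counts, with size factors taken over all 4 libraries, and the part of such RNA in it was not tested either.

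FGFRL1 (chr4:1009936-1026897, plus strand, ENSG00000127418) encodes the member without a kinase domain, and it had the profile nearest to FGFR4 among the members. Its normalised counts were 406 on the miR-491-5p beads, 266 on the control beads, 286 in the miR-491-5p input and 409 in the control input. As for FGFR4, the miR-491-5p beads exceeded the control beads and the miR-491-5p input lay below the control input. The pull-down ratio was 0.61 (0.40 to 0.81), the input ratio -0.51 (-0.74 to -0.28) and the enrichment 1.12 (0.81 to 1.43), or 2.17-fold. It was called in the enrichment only. FGFR4 exceeded FGFRL1 by 0.42 in enrichment, with a counting interval of 0.01 to 0.83, and their input ratios differed by 0.01 (-0.29 to 0.32).

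FGFR1 (chr8:38411138-38468834, minus strand, ENSG00000077782), the receptor of many mesenchymal and cancer cells, differed little between the beads. Its normalised counts were 6263 on the miR-491-5p beads, 6156 on the control beads, 5536 in the miR-491-5p input and 7129 in the control input. The pull-down ratio was 0.02 (-0.02 to 0.07), and the enrichment of 0.39 (0.32 to 0.46) came from the inputs, whose ratio was -0.36 (-0.42 to -0.31). Of its exon bases 1.23% are shared with another annotated gene, and reads there were not counted for either.

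FGFR2 (chr10:121478334-121598458, minus strand, ENSG00000066468), an epithelial receptor whose splice forms bind different FGFs, was the most abundant receptor kinase and lay on the other side of 0. Its normalised counts were 6841 on the miR-491-5p beads, 7935 on the control beads, 6869 in the miR-491-5p input and 6675 in the control input. The control beads held the most, and the other libraries lay close together. The enrichment was -0.26 (-0.32 to -0.19), the pull-down ratio -0.21 (-0.26 to -0.17) and the input ratio 0.04 (-0.01 to 0.09).

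FGFR3 (chr4:1793307-1808872, plus strand, ENSG00000068078), a receptor known for restraining bone growth, was the rarest member. Its normalised counts were 163 on the miR-491-5p beads, 126 on the control beads, 117 in the miR-491-5p input and 84.8 in the control input, the last from 66 reads. By value both pull-downs lay above both inputs, and with either fraction miR-491-5p lay above the control. The counting intervals of the control pull-down (106 to 149) and the miR-491-5p input (96.4 to 141) overlapped. The pull-down ratio of 0.37 (0.06 to 0.68) and the input ratio of 0.46 (0.02 to 0.90) nearly cancelled, and the enrichment of -0.09 (-0.63 to 0.45) was not distinguishable from 0 at this depth.

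FRS2 (chr12:69470349-69579789, plus strand, ENSG00000166225), the adaptor that couples the receptors to GRB2 and SHP2, went furthest in the opposite direction. Its normalised counts were 7377 on the miR-491-5p beads, 22510 on the control beads, 6996 in the miR-491-5p input and 6027 in the control input. The control pull-down alone was high, and the other libraries lay within a narrow range. The pull-down ratio was -1.61 (-1.64 to -1.57), so that the control beads held 3.05-fold more, and the input ratio was 0.22 (0.16 to 0.27). The enrichment of -1.82 (-1.89 to -1.76) ranked 136 from the bottom of 12662 genes, and FRS2 was called lower in the enrichment and in the pull-downs.

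Among the members, 2 of 6 were called higher in the enrichment and 1 of 6 lower, beside 4.46% and 5.32% of all genes compared. In the pull-downs 1 of 6 was called higher and 1 lower, beside 2.50% and 3.17%, and in the inputs none was called, beside 0.727% higher and 0.513% lower. The median enrichment of the members was 0.15 and that of all genes 0.00. The enrichment of FGFR4 exceeded that of FGFR1 by 1.15 (0.87 to 1.43), of FGFR2 by 1.80 (1.52 to 2.07), of FGFR3 by 1.63 (1.03 to 2.23) and of FRS2 by 3.37 (3.09 to 3.64). In the pull-downs alone FGFR4 exceeded FGFR1 by 1.02 (0.83 to 1.21), FGFR2 by 1.26 (1.07 to 1.44), FGFR3 by 0.67 (0.31 to 1.03) and FGFRL1 by 0.44 (0.16 to 0.71). Scaling by total counts moved the median enrichment of all genes by 0.18 and turned FGFR3 from -0.09 to 0.09, and no call of a member in these 3 ratios changed.

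**Figure D2:**
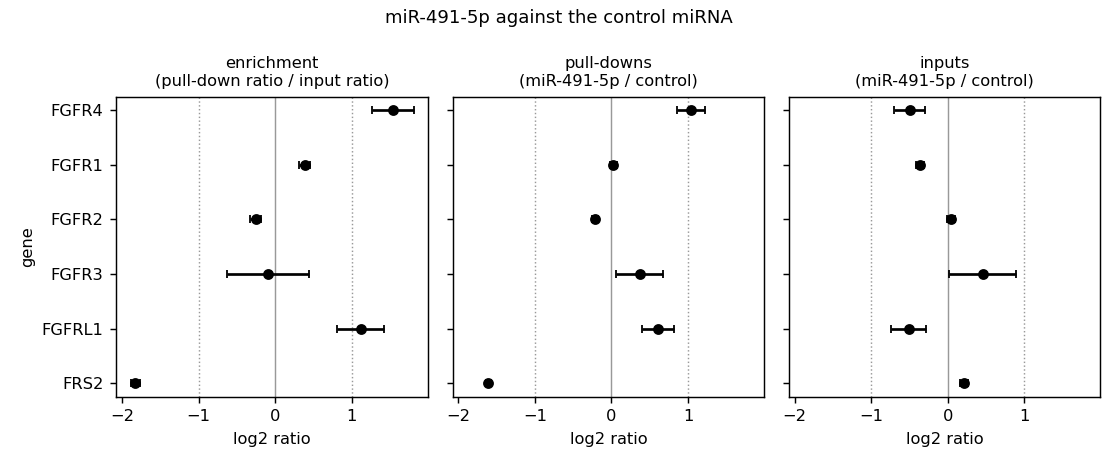
Log2 ratios of miR-491-5p over the control for the 6 genes, as the enrichment, in the pull-downs and in the inputs; bars are 95% counting intervals and dotted lines mark 2-fold. FGFR4 (1.54) and FGFRL1 (1.12) lie past 2-fold in enrichment on one side and FRS2 (-1.82) on the other.

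The beads were next set against the lysate they were incubated with, separately for each miRNA. FGFR4 had a log2 pull-down over input of 0.71 (0.53 to 0.88) for miR-491-5p, against -0.83 (-1.04 to -0.63) for the control, and FGFRL1 had 0.50 (0.29 to 0.71) for miR-491-5p, against -0.62 (-0.84 to -0.39) for the control. Both RNAs thus stood above their input on the miR-491-5p beads and below it on the control beads. FGFR1 showed the same order at a smaller size, with 0.18 (0.13 to 0.23) and -0.21 (-0.26 to -0.16). FGFR3 was above its input on both kinds of bead, with 0.48 (0.15 to 0.81) and 0.57 (0.15 to 0.99). FGFR2 had -0.01 (-0.05 to 0.04) and 0.25 (0.20 to 0.30). FRS2 stayed close to its input with miR-491-5p, at 0.08 (0.03 to 0.12), and stood at 1.90 (1.86 to 1.95) with the control, or 3.73-fold, rank 245 of 12662. On the miR-491-5p beads none of the members was called, beside 5.34% of genes higher and 4.96% lower, and on the control beads 1 of 6 was called higher and none lower, beside 8.61% and 10.0%. The medians of all genes were -0.15 on both kinds of bead. With scaling by total counts FGFR4 on the miR-491-5p beads reached 1.03 and was called, beside 1284 of 12662 genes called higher. There FGFRL1 moved to 0.82, FGFR1 to 0.50, FRS2 to 0.40 and FGFR2 to 0.31, and the median of all genes moved to 0.17.

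Pull-down against input was also tested over both transfections with edgeR's quasi-likelihood test, with the transfection as a block, which leaves 1 residual degree of freedom. With TMM scaling and the count minimum, none of the 6 members passed an adjusted p of 0.05 in edgeR, nor did any in DESeq2. FRS2 alone had an unadjusted p below 0.05 in that edgeR test, where 6.82% of genes were called higher and 5.09% lower. FRS2 came nearest, at 1.14 with an adjusted p of 0.092 (unadjusted p = 0.020), and its 2 pairs differed, at 0.08 in the miR-491-5p pair and 1.90 in the control pair. Over the alternatives run for FRS2 in edgeR and DESeq2 the adjusted p ranged from 0.0049 without a filter on low counts, and 0.042 with total counts, to 0.11, so its call depended on these settings. FGFR3 had 0.67 with an adjusted p of 0.16 in edgeR, and with total counts its unadjusted p was 0.046 (adjusted p = 0.16). FGFR4 had 0.09 with an adjusted p of 0.89 in edgeR, since its pairs lay on opposite sides of 0.

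**Figure D3:**
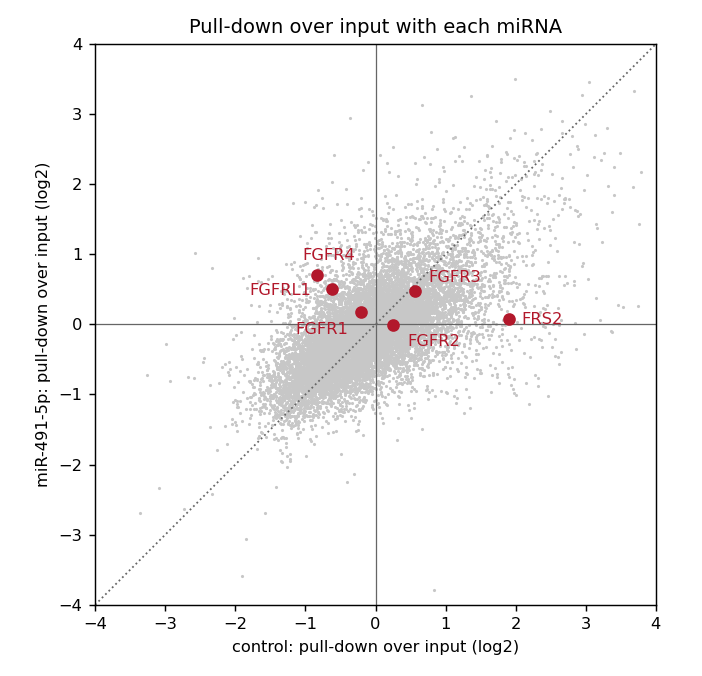
Log2 pull-down over input for miR-491-5p (vertical) and the control (horizontal) for all genes compared (grey; 18 lie outside the axes) and the 6 members (red); the dotted line marks equal values. FGFR4 and FGFRL1 lie in the upper left and FRS2 lies far to the right, near 0 on the vertical axis.

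Over the 4 libraries, the 5 named genes whose log2 profile lay nearest to that of FGFR4, by Euclidean distance after centring each gene on its own mean, were SRD5A3, PTOV1, TMEM50A, SF3A2 and PYROXD2, out of 11692 genes compared. SRD5A3, a reductase of the dolichol pathway for protein glycosylation, was nearest at a distance of 0.031, with normalised counts of 3335 on the miR-491-5p beads, 1629 on the control beads, 2082 in the miR-491-5p input and 2964 in the control input. PTOV1 lay at 0.045 and had an enrichment of 1.53, beside 1.54 for FGFR4. TMEM50A at 0.11, SF3A2, a splicing factor subunit, at 0.13 and PYROXD2 at 0.14 had enrichments of 1.61, 1.33 and 1.44. Among the members FGFRL1 lay at 0.31 from FGFR4, FGFR1 at 0.73, FGFR2 at 0.98, FGFR3 at 1.01 and FRS2 at 2.21.

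The rest of the pathway was taken from lists of 97 genes, of which 96 were matched in the table and 58 passed the count minimum. In enrichment 2 of the 58 were called higher and 3 lower, beside 4.46% and 5.32% of all genes, with a median of -0.09. In the pull-downs none was called higher and 5 lower, beside 2.50% and 3.17%, with a median of -0.27. In the inputs none was called higher and 1 lower, beside 0.727% and 0.513%, with a median of -0.15. The counts in enrichment were near those of all genes. The medians of all genes were 0.00, 0.01 and -0.01. In the edgeR test of pull-down against input 9 of the 58 were called higher, beside 6.82% of all genes, and none lower, beside 5.09%. These 9, named with their lists below, were called with TMM scaling and the count minimum. Other settings of this test were followed for the members and the counts of all genes, not for these 9. Over all genes DESeq2 gave 648 higher and 1330 lower, beside 863 and 645 in edgeR. On edgeR's scale values lay higher than with the size factors that DESeq2 used. FGFR4 had 0.09 in edgeR and -0.06 in DESeq2, and FRS2 had 1.14 and 0.99. Whether the 9 calls hold under other settings was not tested.

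Among 18 FGF ligands only FGF2, FGF9 and FGF18 passed the count minimum. FGF19, the ligand of FGFR4 with KLB, had 2 reads on the miR-491-5p beads and 0 in the other libraries. FGF2 had 494 normalised counts on the miR-491-5p beads, 1152 on the control beads, 590 in the miR-491-5p input and 658 in the control input. It was called lower in enrichment, at -1.06 (-1.28 to -0.84), and in the pull-downs, at -1.22, so like FRS2 it was highest on the control beads. With total counts none of the 3 ligands was called in enrichment, beside 888 higher and 445 lower of 12662 genes. FGF18 had an enrichment of -0.43 and FGF9 of 0.03 (-0.60 to 0.67). FGF9 was higher in the pull-downs than in the inputs, by 1.23 with an adjusted p of 0.042 in edgeR. None of the 4 intracellular FGF homologous factors passed the minimum.

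Of 21 co-receptors and binding partners 12 passed the minimum, with a median enrichment of 0.23. NCAM1, a neural cell adhesion molecule that can bind FGF receptors, was the only one called, at -1.15 (-1.23 to -1.08). It had 6529 normalised counts on the miR-491-5p beads, 9686 on the control beads, 6059 in the miR-491-5p input and 4042 in the control input, so the control input was its lowest library. With total counts it was not called, and 1 of the 12 was called higher, beside 888 of 12662 genes. HSPG2, the heparan sulfate proteoglycan perlecan, had 0.88 (0.73 to 1.02) and SDC4, the proteoglycan syndecan-4, 0.68 (0.60 to 0.76). KLB, the partner of FGFR4 in hepatocytes, had 344 normalised counts on the miR-491-5p beads, 270 on the control beads, 323 in the miR-491-5p input and 185 in the control input, an enrichment of -0.45. In the blocked edgeR test HSPG2 was higher in the pull-downs by 1.21 (adjusted p = 0.029) and FLRT3, an FGF receptor binding membrane protein, by 0.95 (adjusted p = 0.037). None of the 9 measured heparan sulfate enzymes was called in enrichment, with a median of -0.12. GLCE had -0.96, EXT1 -0.77 and NDST1 0.58. HS6ST1, a heparan sulfate 6-O-sulfotransferase, was higher in the pull-downs by 1.09 with an adjusted p of 0.024 in edgeR.

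None of the 16 measured adaptors and effectors was called in any of the 5 ratios. Between 0.513% and 10.0% of all genes were called in each single direction of a ratio. The largest shares were on the control beads over their input, at 8.61% higher and 10.0% lower. Whether 0 of 16 over all these ratios and directions differs from the background was not tested. Their median enrichment was -0.07, and with TMM scaling 1 of them was called lower in the pull-downs, beside 414 of 12662 genes. CRKL, an SH2 and SH3 adaptor, had -0.82 (-0.88 to -0.77), with a pull-down ratio of -0.99. GRB2, which FRS2 recruits, had -0.80 (-0.87 to -0.73), with a pull-down ratio of -0.68. GAB2, a docking protein, had 0.67 (0.56 to 0.78). PTPN11, which encodes SHP2, had -0.26 and SOS1, the RAS exchange factor, -0.03.

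The feedback inhibitors were lower with miR-491-5p in the pull-downs for 10 of 11 measured genes by value, with a median of -0.76 beside 0.01 for all genes. Of the 11, 4 were called lower, beside 3.17% of all genes, and 2 with total counts, beside 263 of 12662 genes. SPRY1, a Sprouty inhibitor of receptor signalling, had 8427 normalised counts on the miR-491-5p beads and 27823 on the control beads, a pull-down ratio of -1.72 (-1.76 to -1.69). DUSP5, an ERK phosphatase, had 9576 and 25941, a ratio of -1.44 (-1.47 to -1.41). DUSP6, another ERK phosphatase, had -1.15 and SPRY2 -1.07. As for FRS2, the control beads held the most of these RNAs, and 4 of the 11 were called higher on the control beads over their input, beside 8.61% of all genes, against none on the miR-491-5p beads, where the median was 0.43 and on the control beads 0.82. With total counts 2 of the 11 were called higher on the miR-491-5p beads, with a median of 0.74, and 5 on the control beads, with a median of 0.96. That scaling called 1284 of all 12662 genes higher on the miR-491-5p beads, with a median of 0.17. On the control beads it called 1373 of 12662 higher, with a median of -0.01. SPRY2, SPRY4, DUSP5 and DUSP6 were higher in the pull-downs than in the inputs in the blocked edgeR test (adjusted p from 0.024 to 0.041). SPRY1 had 1.15 there with an adjusted p of 0.072. Other settings of that test were not followed for these genes. In enrichment only SPRY1 was called, at -1.58 (-1.63 to -1.52), followed by DUSP5 at -0.98 and SPRED1 at -0.72, and the list's median was -0.45.

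In the input RNA, where no beads were used, 10 of the 11 feedback inhibitors and all 7 measured transcripts induced by FGF signalling lay below 0, with medians of -0.44 and -0.63 beside -0.01 for all genes. These genes also respond to other receptor tyrosine kinases. FOSL1, an AP-1 subunit, was the only one called, at -1.43 (-1.71 to -1.16), beside 0.513% of all genes called lower. It had 163 normalised counts in the miR-491-5p input and 442 in the control input. ETV4, an ETS transcription factor induced by ERK, had 414 normalised counts in the miR-491-5p input and 827 in the control input. Its ratio was just short of 2-fold (interval -1.18 to -0.82). With total counts 2 of the 7 were called lower, beside 73 of 12662 genes. EGR1 had -0.75 (-1.05 to -0.45), SPRY4 -0.75 (-0.88 to -0.61) and DUSP6 -0.55 (-0.63 to -0.47), while SPRY1 had -0.15 and ETV5 -0.18. The low inputs gave ETV4 and FOSL1 enrichments of 1.34 and 1.04, both called, although their pull-down ratios were only 0.34 and -0.39, and ETV5 had an enrichment of -0.62. EGR1, an immediate early transcription factor, was higher in the pull-downs than in the inputs by 1.12 with an adjusted p of 0.040 in edgeR. The marker sums of other cell types were also lower in the miR-491-5p input, at 26.1 for hepatocyte and 298 for fibroblast markers, than in the control input, at 3658 and 759. Their part in these ratios was not tested.

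**Figure D4:**
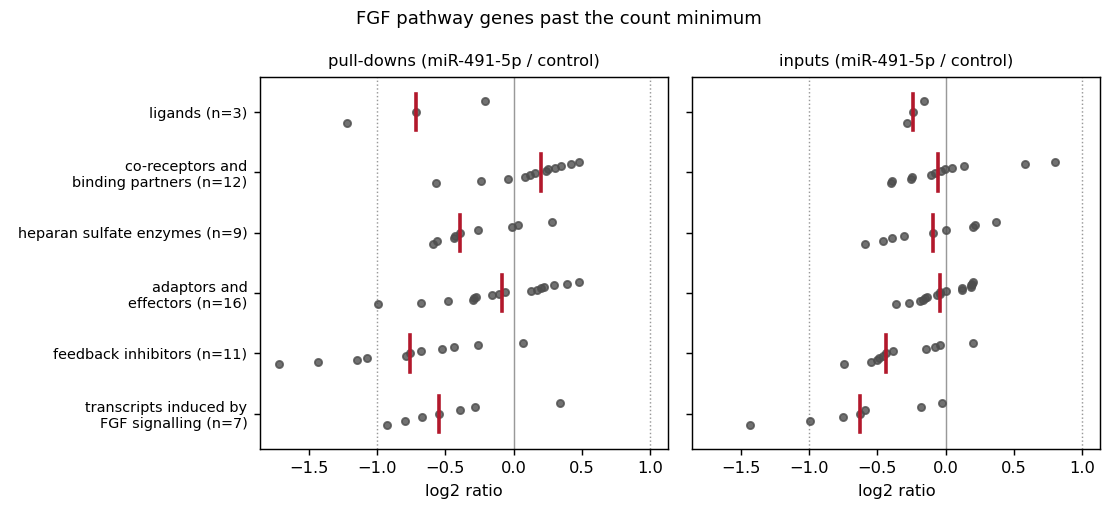
Log2 ratios of miR-491-5p over the control in the pull-downs (left) and inputs (right) for the 58 pathway genes past the count minimum; each point is a gene, red bars are list medians and dotted lines mark 2-fold. The feedback inhibitors have medians of -0.76 and -0.44, and the transcripts induced by FGF signalling lie below 0 in all 7 cases in the inputs.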

How the data were processed

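The authors deposited raw gene counts in whole numbers. The authors counted reads on exons with featureCounts 1.5.0-p1, GENCODE release 24 and hg38, without strand and without reads marked as duplicates, per the file headers. STAR, GRCh38 and DESeq2 1.10.1 are listed per the submitters' processing notes. The library kit keeps strand per the labels, but counting did not use it, so antisense reads cannot be told apart. Exon length, in bases, is a column of the deposited table.

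Here counts were divided by DESeq2 1.42.0 size factors. Log2 ratios used normalised counts plus 1, and intervals are 1.96 counting standard errors on each side with 0.5 added to each count. No molecular identifiers were used, so reads are not independent molecules and intervals cover counting error only. Genes with a mean of at least 50 normalised counts were compared (12662 of 60554). Pull-down against input was tested with edgeR 4.0.16 (quasi-likelihood, TMM factors over the genes compared, Benjamini-Hochberg over all 12662). Counts were also simulated over 12662 genes, with the same fold in both transfections. A dispersion of 0.02 was set for every gene, not estimated from these data. There edgeR called 100% of genes at 4-fold and 90% at 2-fold. These shares describe the simulated setting only. Pairs that differ between the transfections, as those of FRS2 do, were not simulated, so these shares do not apply to them.

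Genes were named by position against RefSeq on GRCh38.p14, which named 11693 of the 12662 genes. All 6 members matched. Named pathway genes were the 3 largest absolute enrichments of each list and others past 2-fold. KLB, FGF19, SOS1, PTPN11 and genes named for the edgeR test, the pull-downs or the inputs were chosen after their values were seen, and the members, lists and markers with earlier results of these data known. Alternatives changed the scaling, pseudocount and count minimum.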

Additional observations from a re-analysis of the deposited data

Results flagged for a closer look

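With 1 library in each group, no library could be set against others of its own group. In 3 members, pull-down over input lay above 0 with miR-491-5p and below 0 with the control, with both counting intervals excluding 0, and no test of the 2 transfections against each other was made: this difference was not tested. These were FGFR4 (0.71 and -0.83, a difference of 1.54), FGFRL1 (0.50 and -0.62, a difference of 1.12) and FGFR1 (0.18 and -0.21, a difference of 0.39). The control values use the control input, which held the most hepatocyte and fibroblast marker RNA.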

How the results depend on the processing

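TMM factors and a pseudocount of 5 left all 60 member values within their counting intervals. Total counts moved 14 member values out of their counting intervals, and took FGFR4 on the miR-491-5p beads to 1.03 and FRS2 there from 0.08 to 0.40. The counts of genes called depended more on the settings. With total counts the enrichment gave 888 higher and 445 lower (against 565 and 673), the pull-downs 522 and 263 (316 and 402), the miR-491-5p beads 1284 and 130 (676 and 628), and the control beads 820 lower (1268), so the share of higher calls in enrichment was 66.6% against 45.6%, in the pull-downs 66.5% against 44.0%, on the miR-491-5p beads 90.8% against 51.8%, and on the control beads 62.6% against 46.2%. With a minimum of 200 normalised counts, which leaves fewer genes, 355 were higher in enrichment, 180 in the pull-downs, 30 in the inputs with 23 lower, 325 on the miR-491-5p beads and 696 on the control beads. Without a filter, over more genes, the enrichment gave 1275 higher and 1302 lower, the pull-downs 1175 and 1199, the inputs 479 and 476, the miR-491-5p beads 2624 and 1023, and the control beads 2850 higher. In edgeR, pull-down against input gave 645 lower and 863 higher, 400 lower and 1090 higher with total counts, and 1689 higher and 1590 lower without a filter. DESeq2 gave 1330 lower and 648 higher, the opposite balance to edgeR's. Leaving out either transfection, FGFR4 ranged from -0.83 to 0.71, with no test. No paired analysis was possible because each group has 1 library, other than the transfection block used above. FGFR3, with 66 to 202 reads, is the member most limited by depth.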
